A study of Gallus gallus with 10 samples.

Results

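FOS (ENSGALG00000028037) and KLF2 (ENSGALG00000003939) were followed as a pair of early-response transcription factor genes, and they are 2 of the 11324 genes counted in the chick preoptic anterior hypothalamus (PO/AH). They were chosen by identifier, with their levels in these same libraries already known. Their levels, their difference between groups and their spread are therefore given as a description, without a test. The samples were 5 naïve libraries and 5 libraries taken after injection of a synthetic hsa-miR-200a-3p mimic, an RNA that acts as the mature microRNA. The study describes the injection as intracranial. Its methods give the PO/AH, the tissue sampled, as the site, while its results text gives the third ventricle. All chicks were Cobb broilers injected or left untreated on day 3 after hatching, and the mimic libraries were collected 6 h after the injection. The naïve chicks received no injection and no library from a control mimic was analysed here, so the effects of the injection and of the microRNA cannot be told apart. The sources used here do not state whether each library came from a single chick, and p-values measure only the spread between these libraries, which may be partly technical.

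FOS pairs with JUN proteins through a leucine zipper to form the AP-1 transcription factor. It is an immediate early gene: its transcription starts within minutes of a stimulus without the need for new protein, and its mRNA is short-lived. In the brain FOS is widely used as a marker of recently activated neurons. KLF2 is a zinc-finger transcription factor of the Krüppel-like family. In mouse and human it is known for its induction by blood flow in endothelial cells and for restraining the inflammatory activation of endothelium, monocytes and T cells. Both were placed by the study among genes of the response to oxidative stress, and FOS also among genes of interleukin-4 and interleukin-13 signaling.

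RNA was read at the 3′ end, and molecules were told apart by random barcodes (unique molecular identifiers, UMIs) so that each was counted once. The UMI counts summed to between 2104121 and 5503185 in the naïve libraries and to between 3598695 and 4511597 in the mimic libraries. Naïve library 7 had the smallest total. It also held 53 UMIs of FOLR1, a folate receptor gene of the choroid plexus, where each other naïve library held 1 to 4 and the mimic libraries held 1 in all. Levels, spread and the relation of FOS with KLF2 that rest on this library are given with and without it. Correlations of other genes with FOS and KLF2 are given only with it. Levels are CPM, a library's counts scaled to a common total, after TMM correction of that total, and libraries are called by the numbers of their deposited columns. Of 11324 genes, 8585 passed the filter on low counts, FOS and KLF2 among them.

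Each mimic library was higher in FOS than every naïve library, and the measured levels of the mimic libraries lay close together. In the naïve libraries the FOS level was 17.7 CPM in library 2, 13.2 in library 3, 18.1 in library 4, 12.3 in library 6 and 11.7 in library 7. In the mimic libraries the FOS level was 23.5 CPM in library 2, 21.9 in library 4, 22.9 in library 6, 24.3 in library 9 and 23.3 in library 10. The groups did not overlap. The lowest mimic library, 4, lay above the highest naïve library, also numbered 4. FOS averaged 14.6 ± 3.09 CPM (SD, n = 5) without injection, against 23.2 ± 0.863 CPM (SD, n = 5) with the mimic. The fitted ratio was 1.58, or 0.66 on the log2 scale with a standard error of 0.16 from edgeR. Without naïve library 7, the naïve mean of FOS was 15.3 ± 3.02 CPM (SD, n = 4), and the log2 fold change was 0.60. In these whole-tissue samples, a change in the number of cells that express a gene and a change in RNA per cell cannot be told apart.

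The naïve FOS levels fell into an upper pair, libraries 2 and 4, and a lower trio, libraries 3, 6 and 7. The counts behind them were 98 and 68 UMIs in the upper pair, and 75, 64 and 23 in the lower trio. With 23 UMIs in library 7, the exact 95% Poisson interval of its level ran from 7.39 to 17.5 CPM. For library 4 the interval ran from 14.1 to 23.0 CPM, and it overlapped those of library 7 and of the mimic libraries. Such overlap does not show that a difference is within counting error. Across the naïve libraries the FOS coefficient of variation was 21.2%, where counting error would give 13.2%. The mimic libraries held 84 to 105 FOS UMIs each, and their intervals overlapped throughout. These intervals cover counting error only.

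**Figure D1:**
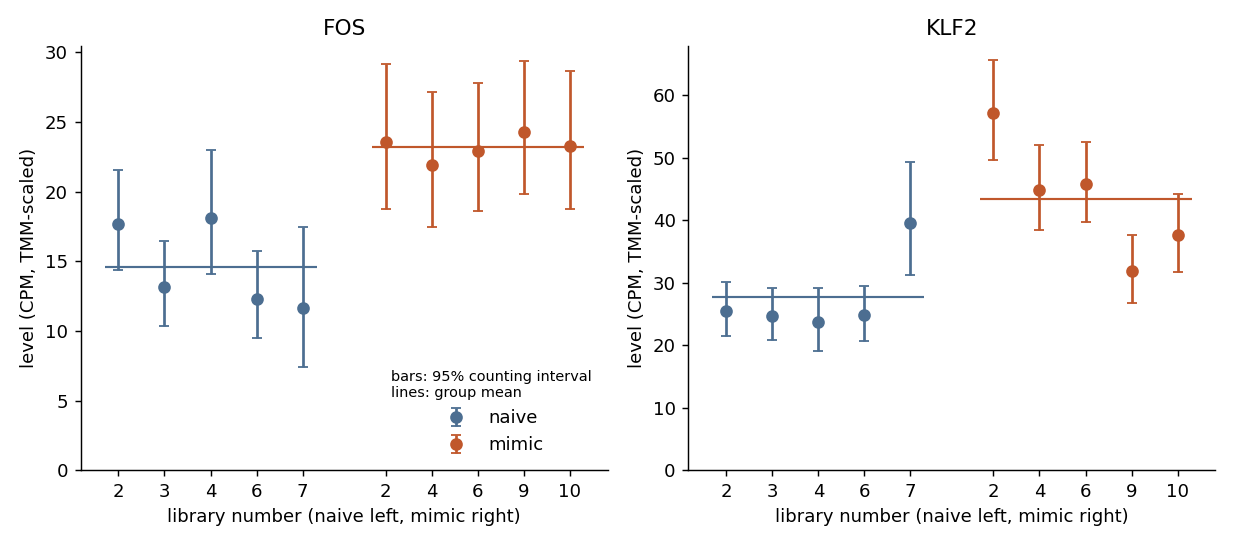
Level of FOS (left) and KLF2 (right) in each library, in CPM after TMM scaling, with the library number on the x axis, naïve libraries in blue and mimic libraries in orange. Bars are exact 95% Poisson intervals of the count and lines are group means; FOS does not overlap between the groups, while KLF2 in naïve library 7, at 39.5 CPM, lies above mimic libraries 9 and 10.

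KLF2 was higher on average after the mimic, with overlap between the groups through a single naïve library. In the naïve libraries the KLF2 level was 25.5 CPM in library 2, 24.7 in library 3, 23.7 in library 4, 24.8 in library 6 and 39.5 in library 7. In the mimic libraries the KLF2 level was 57.2 CPM in library 2, 44.9 in library 4, 45.8 in library 6, 31.9 in library 9 and 37.6 in library 10. Naïve library 7 lay above mimic libraries 9 and 10, and the other 4 naïve libraries lay below all mimic libraries. KLF2 averaged 27.7 ± 6.67 CPM (SD, n = 5) without injection, against 43.5 ± 9.54 CPM (SD, n = 5) with the mimic. The fold change was 1.59, or 0.67 on the log2 scale with a standard error of 0.18 from edgeR.

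Without naïve library 7, the naïve mean of KLF2 was 24.7 ± 0.720 CPM (SD, n = 4), each of the 5 mimic libraries exceeded every naïve one, and the log2 fold change was 0.81. The KLF2 level of library 7 rested on 78 UMIs, and its exact 95% Poisson interval, from 31.3 to 49.4 CPM, did not reach the highest other naïve value of 25.5 CPM. The KLF2 counts were 141, 141, 89 and 129 UMIs in naïve libraries 2, 3, 4 and 6, and between 138 and 204 in the mimic libraries. Among the mimic libraries, the KLF2 interval of library 2 began at 49.6 CPM and that of library 9 ended at 37.7 CPM. These libraries therefore differed by more than counting error. Library 7 also had the smallest total and the most FOLR1 UMIs. Their part in its KLF2 level was not tested, and the relation of KLF2 with library size is given below.

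The fold changes of both genes were alike in size, and both lay near the upper end of all genes tested. On the log2 scale, 1.71% of the 8585 genes had a higher fold change than FOS and 1.58% had a higher fold change than KLF2, while the median gene was at 0.00. Both had a mean fold of at least 1.5 and a highest count of at least 30, as did 1.86% of genes in this direction. A non-overlapping higher level after the mimic was seen in 1 of the 2 genes, FOS, and in 1.09% of all genes (1.61% did not overlap in either direction). At an adjusted p of 0.05, a fold of 1.5 and a highest count of 30, edgeR called 0 of the 2 genes, against 0.14% of all genes called higher and 0.0233% called lower (0.163% in either direction). DESeq2 at the study's settings, run on the same 8585 genes, called 1 of the 2, FOS, against 0.419% called higher (0.478% in either direction). The limma-voom fit called 0, against 0.0932%. Both genes had an unadjusted p under 0.05 in edgeR, as did 7.45% of all genes. The study's gene lists use a looser limit on adjusted p than 0.05, which was not applied here. In DESeq2 KLF2 lay under that limit, and the share of all genes under it was not computed. As the genes were picked with this comparison known, nothing is read from these counts.

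**Figure D2:**
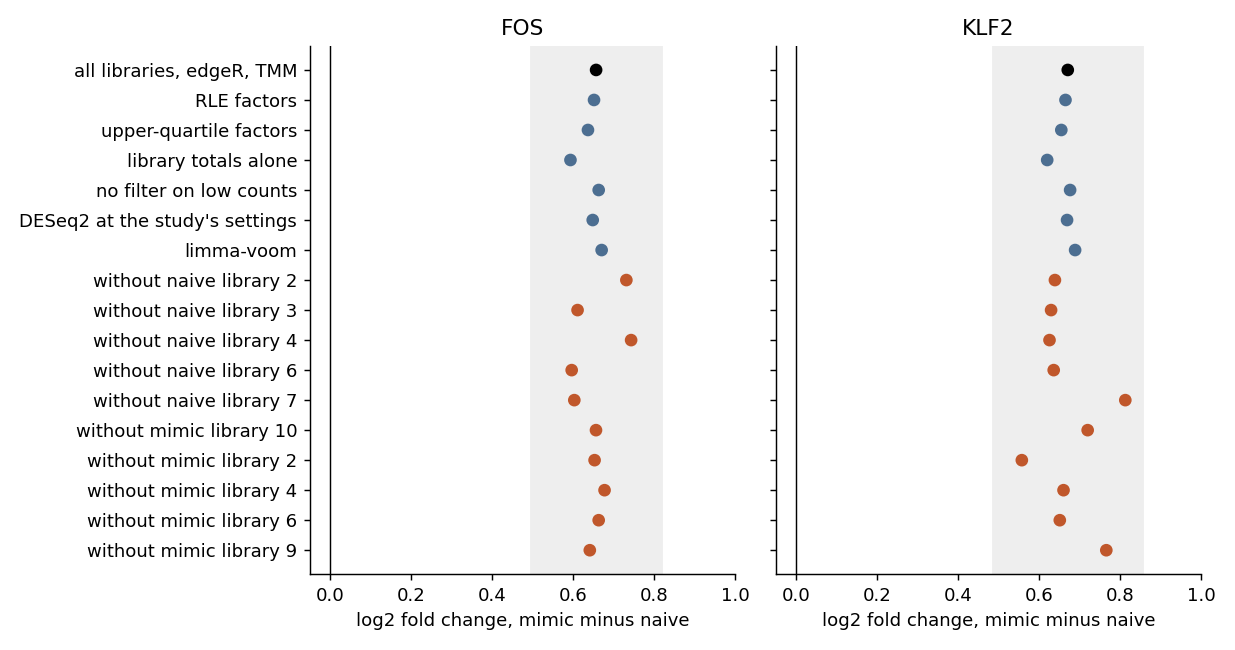
Log2 fold change of FOS (left) and KLF2 (right), mimic minus naïve, with all libraries (black), under other normalizations or tools (blue) and without each library in turn (orange). The grey band is the main value plus or minus its standard error, and no setting takes either gene to 0: FOS lies between 0.59 and 0.74 and KLF2 between 0.56 and 0.81.

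The direction held for both genes under every setting tried. For FOS the log2 fold change ran from 0.60 without naïve library 6 to 0.74 without naïve library 4. For KLF2 it ran from 0.56 without mimic library 2 to 0.81 without naïve library 7. Scaling by library totals alone gave the lowest value of the other settings, 0.59 for FOS and 0.62 for KLF2.

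The spread within the groups differed between these genes. For FOS, the SD of log2 CPM was 0.29 in the naïve libraries and 0.053 in the mimic libraries, a ratio of 0.182. On the CPM scale, the coefficient of variation of FOS was 21.2% without injection and 3.72% with the mimic, and the highest mimic library exceeded the lowest by 1.11 times, against 1.56 times among naïve libraries. Without mimic library 4, the lowest of its group, the ratio was 0.119, and with SDs of CPM on the linear scale it was 0.279. Without naïve library 7, the ratio was 0.188 and the naïve coefficient of variation was 19.7%. The choice of FOS included these values, so they are not tested against KLF2 or between the groups.

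The FOS levels after the mimic varied less than counting error alone would give on average. Counting error can by luck bring measured levels closer than this average. The true levels are therefore not shown to be this close. The coefficient of variation that UMI counting would give at these depths is 10.4% in the mimic libraries and 13.2% in the naïve libraries. An index of dispersion, in which 1 is the value for counting error alone, was 0.129 for FOS in the mimic libraries and 2.63 in the naïve libraries. The median of this index over all genes tested was 3.50 and 3.61 in these groups, and 0.315% of genes had a lower index than FOS in the mimic libraries. For the SD of log2 CPM, 0.769% of genes were below FOS in the mimic libraries, and 51.3% in the naïve libraries. The narrow range of the mimic libraries, rather than a wide range of the naïve libraries, is thus what set the ratio: 0.466% of all genes had a lower ratio and the median ratio was 0.971.

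**Figure D3:**
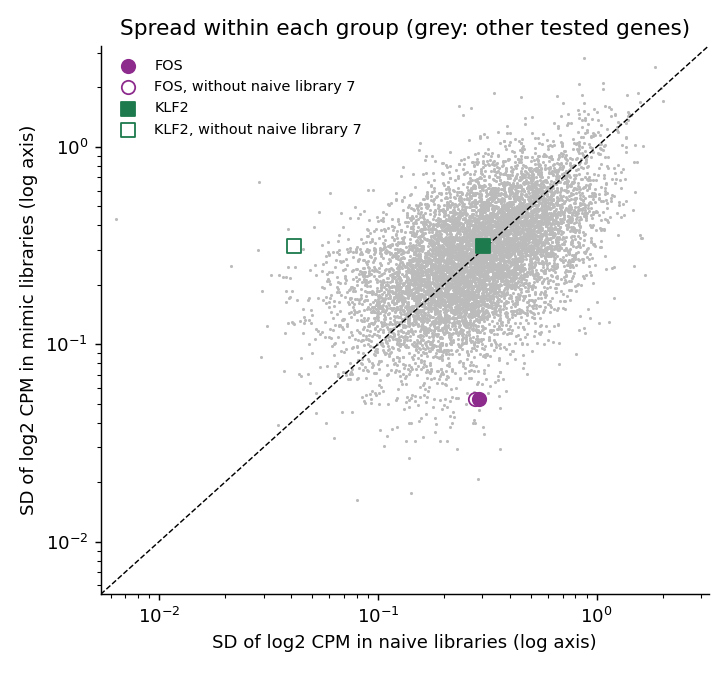
SD of log2 CPM over the 5 mimic libraries (y axis) against the SD over the 5 naïve libraries (x axis), both on log axes, for each of the 8585 genes tested (grey), FOS (purple circle) and KLF2 (green square), with equal SDs on the dashed line. Open symbols have the naïve SD of the 4 libraries other than library 7: FOS stays far below the line, and KLF2 moves from the line, at 0.30 against 0.31, to far above it.

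For KLF2 the SD of log2 CPM was 0.30 in the naïve libraries and 0.31 in the mimic libraries, a ratio of 1.04. The naïve value rested on library 7. The SD of the other 4 naïve libraries was 0.041, and the ratio was 7.59 when the fit was repeated without that library. The coefficient of variation of KLF2 was 24.1% in all naïve libraries, 2.92% in those 4 and 22.0% after the mimic. Counting error would give 10.2% over all naïve libraries and 7.65% after the mimic. Its value for those 4 libraries alone was not computed. Their exact 95% Poisson intervals, such as 19.1 to 29.2 CPM in library 4, were each wider than the range of their levels, 23.7 to 25.5 CPM. Their true levels are therefore not shown to be this close, and the same holds for FOS in the mimic libraries. The dispersion index of KLF2 was 8.20 in the mimic libraries, above that of 74.4% of genes, and 3.82 in the naïve libraries, above that of 52.0%. For the SD of log2 CPM, 58.6% of genes were below KLF2 in the mimic libraries, and 53.9% in the naïve libraries. With library 7 left out, the naïve libraries were close to each other in KLF2 and the mimic libraries lay apart, the reverse of FOS. Library 7 held the extreme naïve level of KLF2, so leaving it out was bound to narrow the naïve spread. No pattern is therefore read from this ratio.

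Whether libraries high in FOS were also high in KLF2 was examined within the groups, after each group mean was subtracted. Over the 10 libraries Pearson's r was -0.44 (exact permutation test within groups, two-sided, p = 0.181, adjusted p = 0.271 over 3 relations) and Spearman's rho was -0.48 (exact permutation test, p = 0.152, adjusted p = 0.455). No relation was thus shown. Naïve library 7 was the lowest naïve library for FOS and the highest for KLF2, and without it r was -0.11. Without naïve libraries 2 and 4, the farthest from the median in FOS, r was -0.43. Mimic library 9 was the highest of its group for FOS and the lowest for KLF2.

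The other relations were those with library size. FOS had an r of 0.34 with the log2 of the total UMI count (exact permutation test, p = 0.664, adjusted p = 0.664) and a rho of 0.055 (exact permutation test, p = 0.810, adjusted p = 0.810), and r was 0.42 without naïve libraries 2 and 4. KLF2 had an r of -0.69 with it (exact permutation test, p = 0.0429, adjusted p = 0.129) and a rho of -0.33 (exact permutation test, p = 0.368, adjusted p = 0.552). The relation of KLF2 did not pass the threshold after adjustment and rested on the farthest libraries. For KLF2, r was 0.0030 without naïve library 7 and mimic library 2, and -0.24 without naïve library 7 alone.

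**Figure D4:**
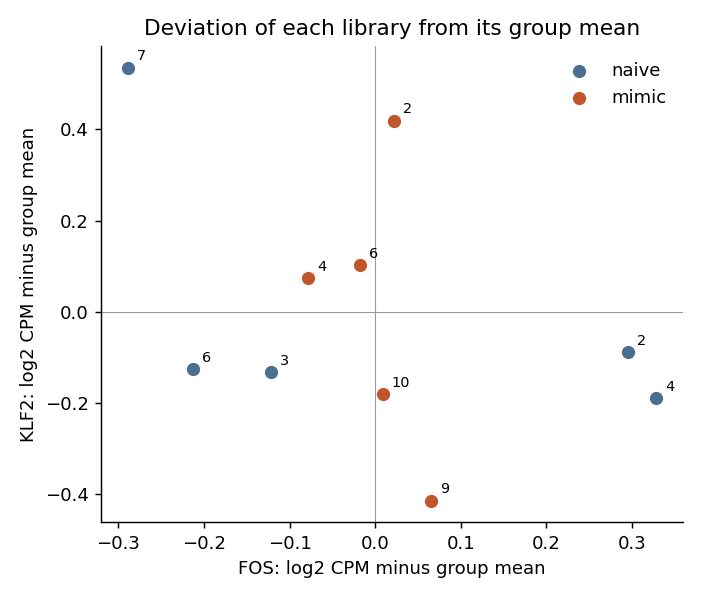
Deviation of each library from its group mean on the log2 CPM scale, for FOS (x axis) and KLF2 (y axis), with the library number beside each point, naïve in blue and mimic in orange. The mimic libraries lie within 0.08 of their mean in FOS and reach 0.42 above and 0.41 below it in KLF2; naïve library 7 is at -0.29 in FOS and 0.54 in KLF2.

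Genes around FOS and KLF2 could be followed only where the study's tables pair an identifier with a symbol. This held for 137 genes in the counts. None of 11 other AP-1 family genes, 13 other Krüppel-like factor genes, 10 regulators of KLF2 or 10 endothelial genes that depend on KLF2 was matched to an identifier. Of 15 regulators of FOS, 1 was matched, STAT3, a transcription factor activated by cytokine receptors. Of 32 other early-response genes, 2 were matched: SOCS3, a cytokine-induced inhibitor of STAT signaling, and NFKBIZ, an inducible partner of NF-κB. Nearly all symbols come from tables of genes that the study picked on these libraries, and the gene lists are not independent evidence of a direction.

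SOCS3 and STAT3 had higher means after the mimic, with no overlap between the groups, as in 1.09% of all genes. In SOCS3 the gap was narrow and rested on few UMIs. It lay between naïve library 7, with 10 UMIs, and mimic library 9, with 23 UMIs. SOCS3 ran from 1.08 to 5.07 CPM (median 1.73) in naïve chicks and from 5.31 to 60.5 CPM (median 28.8) after the mimic. The difference on the log2 scale was 3.83 ± 0.71 (SE), with adjusted p = 0.0688 in edgeR and 8.67e-05 in DESeq2. Its range in the mimic libraries was wide, unlike that of FOS: mimic library 9, the highest for FOS, was the lowest for SOCS3. STAT3 ran from 45.0 to 74.0 CPM (median 49.8) in naïve chicks and from 80.3 to 119.6 CPM (median 84.6) after the mimic, a log2 difference of 0.78 ± 0.16 (SE), with adjusted p = 0.0688 in edgeR and 0.00128 in DESeq2. For NFKBIZ the log2 difference was 1.07 ± 0.30 (SE), with adjusted p = 0.364 in edgeR and 0.155 in DESeq2, and 4 of its 5 mimic libraries exceeded every naïve one.

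For the response to oxidative stress the study names FOS and KLF2 with STAT6, the transcription factor activated by interleukin-4, and GPX2. No identifier was matched to GPX2, and the study's table holds GPX1 (ENSGALG00000028204), a glutathione peroxidase that removes peroxides. GPX1 was counted in this list in place of GPX2, and whether it is the gene meant is not known. STAT6 had the largest of the 4 log2 fold changes, 0.86, with levels from 12.1 to 16.9 CPM in naïve chicks and from 19.8 to 33.6 CPM after the mimic (adjusted p = 0.0688 from edgeR). GPX1 had 0.57, with levels from 193 to 283 CPM in naïve chicks and from 261 to 442 CPM after the mimic (adjusted p = 0.229 from edgeR). The groups overlapped in GPX1 and KLF2, and not in STAT6 and FOS, where 1.09% of all genes were higher without overlap. edgeR called 0 of the 4 higher (0.14% of all genes), DESeq2 called 2, FOS and STAT6 (0.419%), and limma-voom called 0 (0.0932%). In DESeq2, KLF2 and GPX1 lay under the looser limit on adjusted p that the study used for its gene lists. All 4 had an unadjusted p under 0.05 in edgeR, as did 7.45% of all genes. The median log2 fold change of the list was 0.66, beside 0.00 over all genes tested. This median lies between the values of FOS and KLF2, which are in the list, so it restates them. Without GPX1, an alternative chosen after seeing the data, edgeR called 0 and DESeq2 2 of the 3. The median was then 0.67, which is the value of KLF2. The genes were chosen by the study on these libraries, and the counts for the list include FOS and KLF2.

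In the list for interleukin-4 and interleukin-13 signaling, FOS stands with the receptor chain IL2RG, the transcription factors STAT3 and STAT6, the inhibitor SOCS3 and the chaperones HSPA8 and HSP90B1. Their log2 fold changes were 3.83 for SOCS3, 1.10 for IL2RG, 0.86 for STAT6, 0.78 for STAT3, 0.66 for FOS, 0.43 for HSP90B1 and 0.34 for HSPA8, with a median of 0.78. All 7 means were higher after the mimic. By edgeR 0 of the 7 were called higher (0.14% of all genes), by DESeq2 5 (0.419%) and by limma-voom 0 (0.0932%). All 7 had an unadjusted p under 0.05 in edgeR, as did 7.45% of all genes. Without mimic library 4, edgeR called SOCS3 and STAT6 (adjusted p = 0.0292 and 0.0451), without mimic library 9 it called SOCS3 (adjusted p = 0.0133), and without naïve library 7 it called STAT3 (adjusted p = 0.0137). Neither FOS nor KLF2 was called by edgeR with any library left out. This list too was chosen on these libraries, and its counts and median include FOS.

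**Figure D5:**
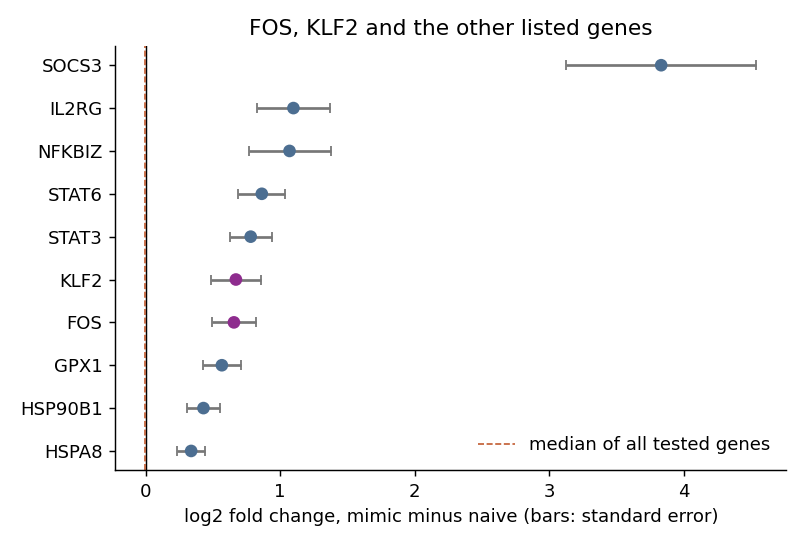
Log2 fold change, mimic minus naïve, of FOS and KLF2 (purple) and the other matched genes of the oxidative stress, interleukin and early-response lists (blue), with standard errors from edgeR as bars. FOS at 0.66 and KLF2 at 0.67 lie between STAT3 at 0.78 and GPX1 at 0.57, and the dashed line is the median of all genes tested, at 0.00.

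Naïve library 7 held the highest naïve level of 7 of the 9 genes in the oxidative stress and interleukin lists as used here, KLF2, GPX1, HSPA8, IL2RG, STAT3, HSP90B1 and SOCS3 (6 of 8 without GPX1). It held the lowest naïve level of FOS. Over all genes tested it held the highest naïve level in 32.7% and the lowest in 31.7%. FOS and KLF2 were thus at opposite ends of the naïve range in this library.

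Among 91 genes with a symbol and a mean of at least 10 CPM, those that varied most like KLF2 within the groups were the ER chaperone gene HSP90B1 (r = 0.88), the phospholipid acyltransferase gene LPCAT3 (r = 0.87) and STAT3 (r = 0.83). ITGB1BP3 (r = 0.77) and NFIX (r = 0.72), a nuclear factor I gene, came next. These r are over the 10 libraries after group means were subtracted, and the points share library depth. Spearman's rho was 0.88, 0.88, 0.50, 0.81 and 0.65 in that order. Naïve library 7 held the highest naïve level of each of these genes, as it did of KLF2, and r was not computed without it. As group means were subtracted, these r describe the pattern across libraries and say nothing about the group difference. The log2 fold changes were 0.78 for STAT3, 0.43 for HSP90B1, 0.21 for ITGB1BP3, -0.43 for LPCAT3 and -0.93 for NFIX. For HSP90B1, naïve library 7 was at 462.9 CPM and the others of its group were at 315.8 to 354.8 CPM. Mimic library 2, the highest mimic library for KLF2, was also the highest for HSP90B1 at 573.3 CPM. The same library was the highest mimic library for STAT3, LPCAT3, NFIX, SOCS3, STAT6 and NFKBIZ, though not for ITGB1BP3. The share of all genes highest in it was not computed. Of 6081 genes at this level, with or without a symbol, 83 had a higher r with KLF2 than HSP90B1 had.

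For FOS the nearest genes with a symbol were RNFT1 (r = 0.56), BRSK2 (r = 0.52), CTDSPL (r = 0.46) and LRFN5 (r = 0.46). Spearman's rho was 0.45, 0.33, 0.0061 and 0.43 in that order. Naïve library 7 held the lowest naïve level of each of these genes, as it did of FOS, and r was not computed without it. These r are low, and 215 of the 6081 genes had a higher r than RNFT1. As FOS hardly varied among the mimic libraries, they describe mainly the naïve libraries.

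Most matched markers of microglia, the resident macrophages of the brain, were higher after the mimic, as FOS and KLF2 were on average. Nearly all symbols come from genes that the study picked on these libraries, so this direction is not independent evidence. No relation of these markers with FOS or KLF2 across libraries was tested. Of 10 listed, 6 were matched (C1QA, C1QB, C1QC, SPI1, P2RY13 and TREM2), and none was at 0 in any library. Their summed level ran from 80.5 to 116.6 CPM in naïve chicks and from 158.2 to 221.8 CPM after the mimic. For all but TREM2, each of the 5 mimic libraries exceeded every naïve one, as in 1.09% of all genes. edgeR called 2 of the 6 higher, C1QB and C1QC, against 0.14% of all genes. DESeq2 called 5 of the 6 higher (0.419% of all genes) and limma-voom called 1 (0.0932%). All 6 had an unadjusted p under 0.05 in edgeR, TREM2 in the other direction, as did 7.45% of all genes. For TREM2 the log2 difference was -0.85 (adjusted p = 0.320 in edgeR). RBFOX3 was the 1 neuronal marker matched of 7. It ran from 91.2 to 138.4 CPM in naïve chicks and from 53.2 to 110.6 CPM after the mimic. Its log2 difference was -0.45 (unadjusted p = 0.0285 and adjusted p = 0.612, both from edgeR). FOLR1 was the 1 of 5 choroid plexus and ependymal markers matched. No marker of endothelium, astrocytes, oligodendrocytes, meninges, red blood cells, T cells or the hypothalamus was matched to an identifier, so the tissue label was not checked here. The part of these cell types in the FOS and KLF2 levels was not tested.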

How the data were processed

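Bulk MARS-seq libraries were made by the authors from 15 ng of PO/AH RNA. After trimming with cutadapt, reads were aligned by STAR against gene 3′ ends of galGal5 and counted with HTSeq, with versions not given in the sources read. The deposited values used are whole-number UMI counts per gene, collapsed by gene and UMI and corrected for saturation by the authors. The 10 deposited columns of normalized values and the list of the authors' thresholds were not used. Columns show the group of a library but not its replicate number. Gene names came from the study's tables. In the RefSeq annotation of GRCg7b, no gene overlaps FOS or KLF2. No sequence or genome was used here.

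The principal fit to the counts used edgeR 4.0.16 under R 4.3.3 (filterByExpr at a minimum count of 10, TMM, robust quasi-likelihood test, two-sided, Benjamini-Hochberg adjustment over 8585 genes). CPM on the log2 scale had a prior count of 2. Standard errors were derived from the edgeR fit, as the log2 fold change without its sign over the square root of the F statistic. That statistic uses a variance estimate that borrows from all genes. The common biological coefficient of variation was 21.2%. The fit was tested on simulated data. Alternatives were DESeq2 1.42.0, limma-voom (limma 3.58.1), other scaling, filters and prior counts, and leaving out each library. DESeq2 and limma-voom were run on the genes that passed filterByExpr, a step that the study does not describe. Named genes were FOS, KLF2, at most 6 matched genes per list, and the 5 genes with a symbol most correlated with each member, of which 1 is not reported here. The members and lists were chosen with earlier results of these data known.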

Additional observations from a re-analysis of the deposited data

Results flagged for a closer look

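KLF2 in naïve library 7 was at 39.5 CPM, while the other 4 naïve libraries lay between 23.7 and 25.5 CPM. The gap to the nearest library made up 0.890 of the range of the group, where the limit used to pick out single samples (Dixon's, for 5 samples) is 0.71. Chance passes this limit in about 1 in 20 groups, and 4 groups were screened (FOS and KLF2, naïve and mimic), of which this was the only one past it. The genes were chosen with these values known, so this is a description of the library and not a test. This library also had the smallest total, 2104121 UMIs, and 53 of the 62 FOLR1 UMIs in the naïve libraries.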

How the results depend on the processing

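FOS and KLF2 kept their direction under each alternative. With DESeq2 at the study's settings, 36 genes were called higher and 5 lower, where edgeR called 12 and 2, and 2 and 5 genes of the oxidative stress and interleukin lists were called, where edgeR called 0. The SD ratio of FOS was 0.279 on the linear CPM scale. Leaving out each library in turn gave log2 fold changes of 0.60 to 0.74 for FOS and 0.56 to 0.81 for KLF2, and SD ratios of 0.119 to 0.209 for FOS and 0.803 to 7.59 for KLF2. It gave 6 to 18 genes called higher and 2 called lower, 0 to 1 and 0 to 2 called genes of these lists, and an r between FOS and KLF2 of -0.56 to -0.11. The cause of these changes was not tested. No paired analysis was possible because library numbers in the counts are not those of the labels. With 23 to 105 FOS UMIs per library, counting error limits comparisons of single libraries.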

Other observations

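TMED10 (ENSGALG00000010318), which encodes a cargo receptor of the early secretory pathway, lies next to FOS in the RefSeq annotation of GRCg7b. JDP2 lies on the other side of FOS, and EPS15L1 and AP1M1 lie beside KLF2. No levels of these other neighbours are given here. TMED10 was picked for its place after its values were seen. It averaged 152.7 ± 14.7 CPM (SD, n = 5) without injection, against 224.4 ± 42.5 CPM (SD, n = 5) with the mimic. Each of the 5 mimic libraries exceeded every naïve one, as in 1.09% of all genes. The log2 difference was 0.56 ± 0.13 (SE), with adjusted p = 0.165 in edgeR, 0.0225 in DESeq2 and 0.195 in limma-voom, and edgeR's adjusted p was 0.128 to 0.476 with each library left out. Within the groups TMED10 did not follow FOS across the 10 libraries (r = -0.12, given as a description). TMED10 is in the study's table of genes picked on these libraries.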
